A study of Rattus norvegicus with 20 samples.

Results

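Liver gene expression was compared between rats fed episesamin and rats fed a diet without lignan, on 10 of the 20 Affymetrix arrays of a study of 4 diets. The members of the comparison were chosen by diet label alone: 5 arrays of the episesamin diet against 5 of the lignan-free diet, with 1 array per rat. All animals were male Sprague-Dawley rats, 4 weeks old when they arrived. After 7 d on a commercial chow, groups of 7 rats received a diet with 0.2% episesamin or no lignan for 15 d, and the heaviest and the lightest rat of each group were not put on arrays. The other 10 arrays came from rats fed sesamin or sesamolin at the same dose for the same time, and they entered the fit that estimates the spread. Total liver RNA was labelled, so every value is a mean over all cells of the tissue.

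Episesamin is a lignan of refined sesame oil and an epimer of sesamin, which means that both have the same atoms and bonds and differ in the arrangement in space at 1 carbon of the furofuran core. Long-chain fatty acids are burned in liver mitochondria and peroxisomes. They are first bound to coenzyme A, passed into mitochondria as carnitine esters, and shortened step by step by beta-oxidation. Many genes of these steps are known targets of PPARα, a nuclear receptor of hepatocytes that binds fatty acids and synthetic peroxisome proliferators, whereas CAR and PXR are receptors that respond to foreign compounds and control genes of drug metabolism.

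Of 11576 genes tested, 337 were higher and 256 lower on episesamin at a limma adjusted p below 0.05 (Benjamini-Hochberg over all tested genes), which is 2.91% and 2.21% of the genes and 5.12% in all. The increases were the larger changes. The rise was at least 2-fold for 95 genes and the fall for 24, at least 4-fold for 24 genes that rose and 1 that fell, and at least 8-fold for 11 that rose and 0 that fell. All levels are quantile-normalized intensities, and log2 differences and folds were taken after adding an offset of 5.85, which understates the change of dim genes. For 460 of the 593 called genes no episesamin array overlapped the range of the lignan-free group. Over all tested genes that held for 6.85%, with 3.81% higher and 3.04% lower. The call held in each of the 20 fits that left out 1 array, with groups that did not overlap and a characterised symbol, for 265 genes, 183 higher and 82 lower. Where a call of a named gene ended when single arrays were left out, this is given with the gene or in a count of alternatives.

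The split between higher and lower calls depended on how the arrays were scaled. Median scaling called 180 higher and 496 lower genes (26.6% higher, against 56.8% in the quantile-normalized data), with a median difference of all genes of -0.13, and without normalization 73 were higher and 189 lower (27.9% higher, median -0.25, against -0.02 with quantiles). Mean raw intensity was 213 ± 36.1 on the episesamin arrays and 247 ± 29.2 on the lignan-free arrays (SD, n = 5 each, exact two-sided permutation p = 0.151). Of the 337 raised genes, 173 were also called higher under median scaling and 72 without normalization, and of the 256 lowered genes 242 and 140 were also called lower. In the quantile-normalized fit and all 33 alternatives, which are 20 fits without 1 array and 13 other settings, 95 genes were called, 63 of them higher. Leaving out single arrays gave 372 to 635 calls, with 381 and 372 without lignan-free array 4 or 5 and 379 and 387 without episesamin array 3 or 4. Without the 6 arrays whose mean raw intensity was under 200, called dim arrays here (2 episesamin, 1 lignan-free), 290 genes were called.

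Calls were more frequent among genes with bright probe sets. When the tested genes were cut into 4 equal classes by mean level over the 10 arrays, 33, 51, 78 and 175 genes were higher from the dimmest to the brightest class, and 22, 48, 59 and 127 were lower. The median log2 difference of the raised genes ran the other way, from 1.10 in the dimmest class to 0.58 in the brightest. The standard error of a difference also fell, from a median of 0.30 to 0.11. Probe sets differ in how strongly they bind, so brightness does not rank genes by mRNA amount. Of the raised genes, 43 in the brightest class and 20 in the dimmest rose at least 2-fold.

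**Figure D1:**
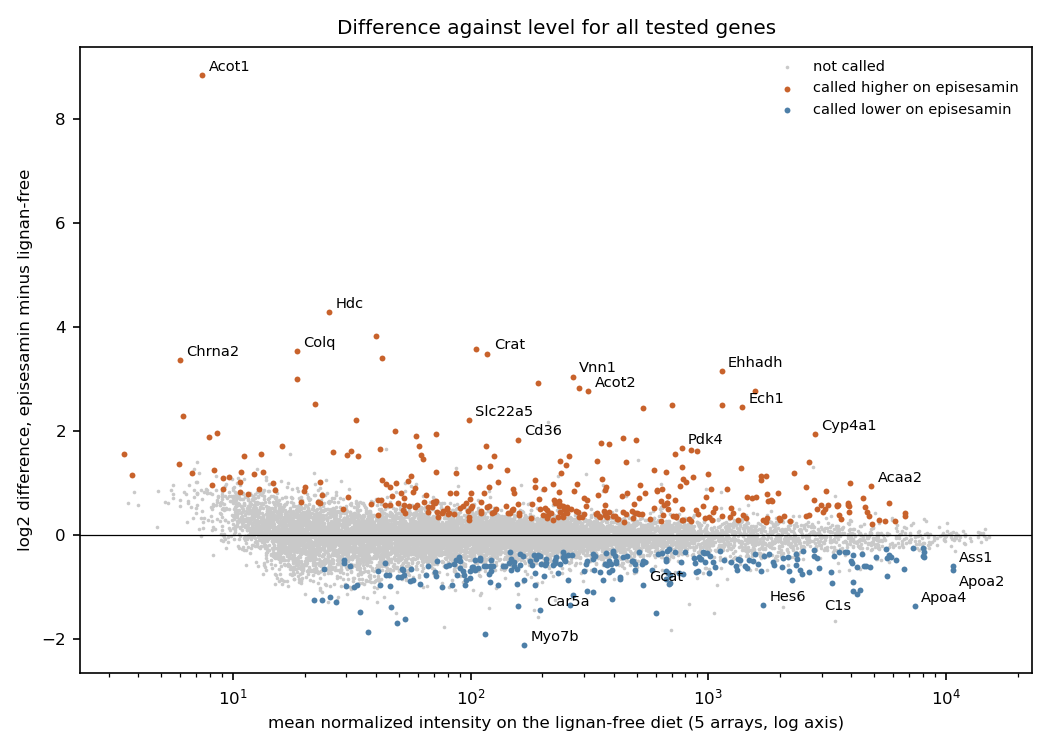
Log2 difference between the episesamin and the lignan-free diet against mean normalized intensity on the lignan-free diet (log axis), with 1 point per tested gene. The 337 genes called higher are orange and the 256 called lower blue. Increases reach 8.83 for Acot1 and decreases -2.11 for Myo7b.

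The carnitine shuttle and mitochondrial beta-oxidation rose along most of their length. Of 36 tested genes of the list, 20 were higher and 0 lower, and the median log2 difference was 0.48 against -0.02 for all tested genes (0.44 with median scaling and 0.31 without normalization). Without the dim arrays 19 were higher. Slc22a5, the plasma membrane transporter that brings carnitine into the cell, measured 90.6, 82.1, 120, 94.8 and 105 in the lignan-free rats and 536, 443, 447, 487 and 460 in the episesamin rats. The groups were far apart and the episesamin rats close together (log2 difference 2.21 ± 0.16, 4.63-fold higher, limma adjusted p = 2.0e-08). Cpt1b, the muscle form of the enzyme that makes acylcarnitines at the outer membrane, measured 39.7, 32.3, 28.1, 21.9 and 28.4 in the lignan-free rats and 100, 61, 133, 62.9 and 162 in the episesamin rats. The 5 episesamin values fell into a lower pair and a higher trio, all above the highest lignan-free value (log2 difference 1.53 ± 0.25, 2.89-fold higher, limma adjusted p = 0.0010). Its liver counterpart Cpt1a measured 1821, 2534, 2486, 1991 and 2473 in the lignan-free rats and 2922, 3151, 3184, 2821 and 2473 in the episesamin rats, with overlapping groups and a log2 difference of 0.37 ± 0.16 that did not pass (limma adjusted p = 0.21). Slc25a20, the carrier that takes acylcarnitines across the inner membrane, measured 960, 934, 878, 775 and 781 in the lignan-free rats and 2117, 1854, 1758, 1883 and 1764 in the episesamin rats. Every episesamin rat exceeded every lignan-free rat by a wide gap (log2 difference 1.11 ± 0.10, 2.16-fold higher, limma adjusted p = 3.2e-07). Cpt2, which returns the acyl group to coenzyme A inside the mitochondrion, measured 739, 834, 1075, 689 and 902 in the lignan-free rats and 2338, 2314, 2401, 2754 and 3321 in the episesamin rats. Episesamin arrays 4 and 5 were the highest, and the groups did not overlap (log2 difference 1.63 ± 0.13, 3.09-fold higher, limma adjusted p = 9.1e-08).

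Inside the mitochondrion, Acaa2, the thiolase of the last step of the spiral, measured 5522, 5004, 5462, 4041 and 4212 in the lignan-free rats and 9277, 9671, 8921, 9277 and 9182 in the episesamin rats. The values on episesamin lay within a narrow band (log2 difference 0.95 ± 0.10, 1.93-fold higher, limma adjusted p = 4.6e-06). Decr1 and Eci1 are the auxiliary enzymes that handle double bonds of unsaturated acyl chains. Decr1 measured 2458, 2638, 2886, 2473 and 2745 in the lignan-free rats and 7176, 7220, 7029, 6606 and 7029 in the episesamin rats, with small spread in both groups (log2 difference 1.41 ± 0.08, 2.66-fold higher, limma adjusted p = 8.3e-10). Eci1 measured 1624, 1646, 1749, 1203 and 1672 in the lignan-free rats and 11240, 11790, 10490, 9805 and 10440 in the episesamin rats. Lignan-free array 4 was the lowest of its group, and the episesamin values were all several times higher (log2 difference 2.77 ± 0.12, 6.83-fold higher, limma adjusted p = 1.0e-11). The dehydrogenases of the first step rose less, Acadm by 0.56 ± 0.08 from 3910 to 5779 and Acadl by 0.44 ± 0.09 from 3911 to 5301 in mean intensity. Ech1, an auxiliary isomerase for dienoyl chains found in both organelles, measured 1058, 1427, 1928, 1182 and 1335 in the lignan-free rats and 7713, 7597, 7738, 7480 and 6907 in the episesamin rats. Lignan-free array 3 was the highest of its group and still far below the lowest episesamin array (log2 difference 2.46 ± 0.14, 5.49-fold higher, limma adjusted p = 5.6e-10). The call ended for Acadm and Acadl without normalization.

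Peroxisomal oxidation gave 18 higher and 1 lower of 31 tested genes, with a median log2 difference of 0.61 (0.52 with median scaling, 0.39 without normalization), and 16 higher and 0 lower without the dim arrays. Acaa1a and Acaa1b of this list share a probe set and were not analysed here. Ehhadh, the bifunctional enzyme of the peroxisomal spiral, measured 1262, 1247, 1391, 791 and 990 in the lignan-free rats and 10490, 12070, 8850, 8291 and 10310 in the episesamin rats. The lowest episesamin value was several times the highest lignan-free one (log2 difference 3.15 ± 0.19, 8.86-fold higher, limma adjusted p = 1.1e-09). Crat and Crot attach short and medium chains to carnitine so that they can leave the peroxisome. Crat measured 114, 113, 120, 87.3 and 154 in the lignan-free rats and 1461, 1420, 1270, 1260 and 1401 in the episesamin rats, with lignan-free array 4 the lowest and array 5 the highest of a low group (log2 difference 3.49 ± 0.19, 11.2-fold higher, limma adjusted p = 5.4e-10). Crot measured 1347, 1204, 1311, 926 and 936 in the lignan-free rats and 6941, 7046, 6854, 5195 and 6143 in the episesamin rats. Arrays 4 and 5 were the lowest of each group, and the groups did not overlap (log2 difference 2.49 ± 0.12, 5.63-fold higher, limma adjusted p = 8.8e-11). Hsdl2, a peroxisomal member of the short-chain dehydrogenase family, rose from 534 to 2917 (log2 difference 2.45 ± 0.14, 5.46-fold higher, limma adjusted p = 5.5e-10). Cat, the catalase of peroxisomes, did not pass the test: 7658, 7341, 7201, 7908 and 8138 in the lignan-free rats and 7947, 8211, 7597, 7779 and 8065 in the episesamin rats, a log2 difference of 0.05 ± 0.07 (limma adjusted p = 0.73) that turned to -0.08 without normalization. Scp2, a sterol carrier protein and thiolase, was also not called, at -0.11 ± 0.07 (adjusted p = 0.37). The single lowered gene of the list was Hao2, a hydroxyacid oxidase (log2 difference -0.43 ± 0.12, 1.34-fold lower, limma adjusted p = 0.039), whose groups overlapped. The call of Hao2 ended in 14 of the 33 alternatives (adjusted p up to 0.10).

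Of 22 tested genes of peroxisome biogenesis, 6 were higher and 0 lower. Their median log2 difference was 0.15, 0.02 with median scaling and -0.11 without normalization, which is 0.17, 0.15 and 0.14 above the median of all genes under the same scaling, and without the dim arrays 3 were higher and 1 lower. Pex11a, which drives elongation and division of peroxisomes, measured 153, 168, 210, 172 and 256 in the lignan-free rats and 1777, 1253, 1212, 1749 and 1481 in the episesamin rats. Episesamin arrays 1 and 4 were the highest, and all 5 were well above the lignan-free rats (log2 difference 2.93 ± 0.23, 7.62-fold higher, limma adjusted p = 5.8e-08). Smaller increases were measured for Lonp2, the protease of the peroxisomal matrix, at 0.85 ± 0.11, for Pex19, a chaperone of membrane proteins, at 0.70 ± 0.11, and for Pex11g, a relative of Pex11a, at 0.65 ± 0.13. No longer past the threshold were Pex19 and Pex11g with median scaling, Lonp2, Pex19 and Pex11g without normalization, and Pex11g without the dim arrays.

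**Figure D2:**
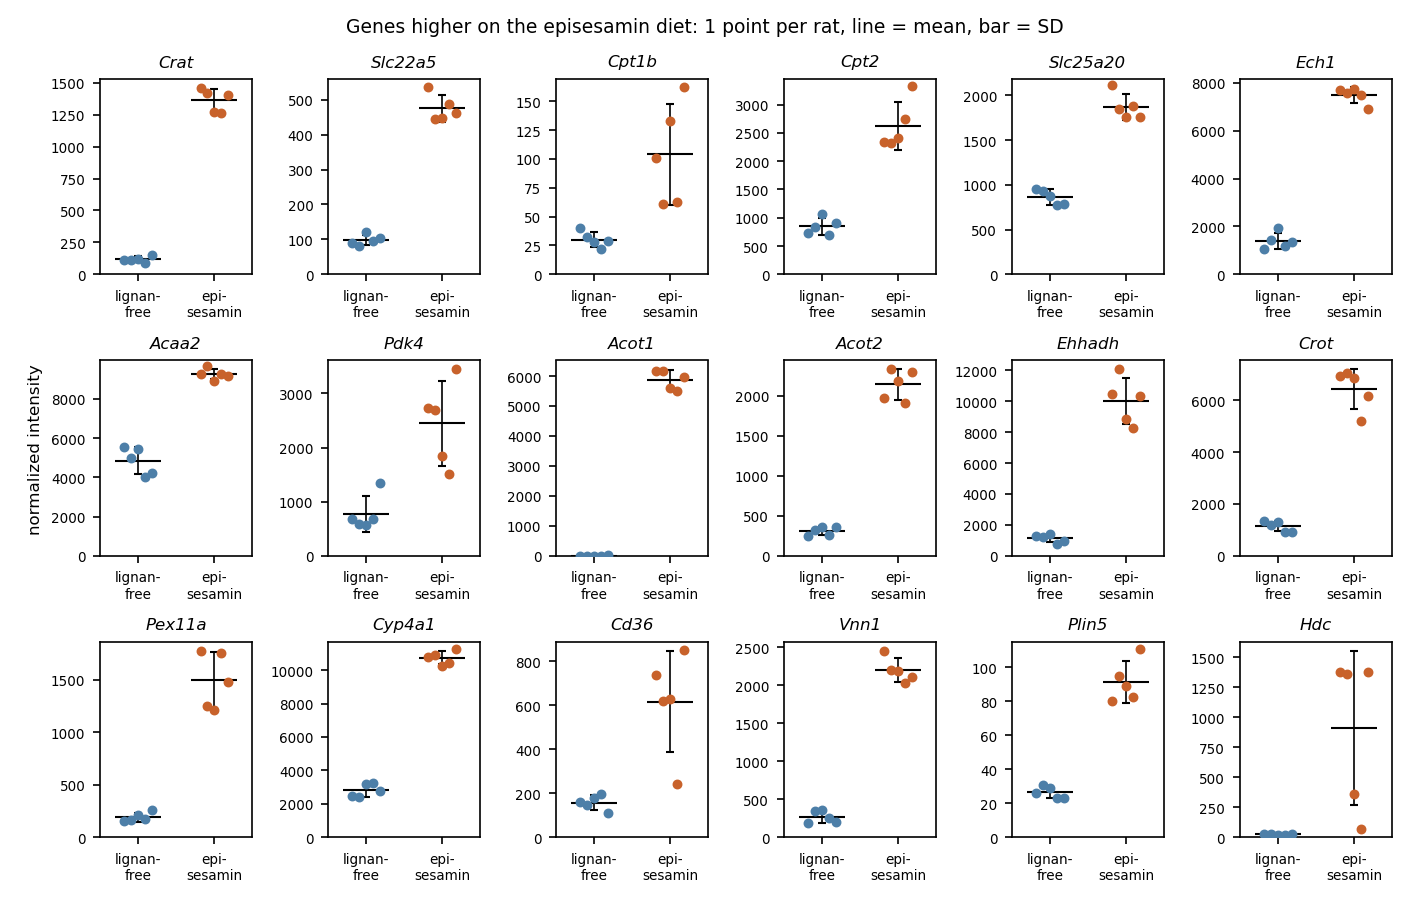
Normalized intensity of 18 genes that were higher on episesamin, in each rat. Points are rats, lines are group means and bars are SD (n = 5 per diet), and each panel has its own axis from 0. In all 18 panels the groups do not overlap, and the episesamin values of Hdc run from 71.6 to 1379.

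Acyl-CoA thioesterases, which release free fatty acids from coenzyme A, held the single largest difference. Of 9 tested Acot genes, a family picked out after the values were seen, 7 were higher and 0 lower. Acot1, the cytosolic long-chain enzyme, measured 10.1, 4.24, 6.7, 4.33 and 11.8 in the lignan-free rats and 6181, 6181, 5588, 5494 and 5969 in the episesamin rats. All lignan-free values were under the intensity of 17.8 that was required of a tested probe set, so the rise is given as at least 329-fold, each lignan-free array set to 17.8, beside a fitted log2 difference of 8.83 ± 0.36 (limma adjusted p = 1.0e-11). Acot2, its mitochondrial relative, measured 248, 324, 365, 263 and 364 in the lignan-free rats and 1971, 2338, 2186, 1914 and 2304 in the episesamin rats, with no overlap (log2 difference 2.77 ± 0.13, 6.8-fold higher, limma adjusted p = 3.7e-11). Acot3 and Acot4, both peroxisomal, rose from 42.4 to 495 and from 285 to 2052 in mean intensity (3.41 ± 0.23 and 2.82 ± 0.20). Acot8, another peroxisomal thioesterase, measured 233, 262, 231, 226 and 233 in the lignan-free rats and 819, 662, 562, 644 and 578 in the episesamin rats. The members of this family are alike in sequence, and how far their probe sets share signal was not tested. The lignan-free values of Acot8 were nearly equal but for array 2, and episesamin array 1 was the highest of all (log2 difference 1.43 ± 0.11, 2.69-fold higher, limma adjusted p = 7.4e-08).

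Genes that make, move or break down coenzyme A gave 6 higher and 0 lower of 14 tested, and 6 higher without the dim arrays. Vnn1, the pantetheinase that recovers pantothenate, measured 193, 343, 358, 252 and 200 in the lignan-free rats and 2458, 2205, 2190, 2035 and 2114 in the episesamin rats. The increase was present in all 5 rats to about the same level (log2 difference 3.05 ± 0.19, 8.27-fold higher, limma adjusted p = 2.6e-09). Nudt7, a peroxisomal hydrolase of coenzyme A, measured 347, 363, 369, 342 and 340 in the lignan-free rats and 1416, 1173, 1147, 1131 and 1208 in the episesamin rats. Lignan-free values were nearly equal, and episesamin array 1 was the highest (log2 difference 1.77 ± 0.12, 3.4-fold higher, limma adjusted p = 7.0e-09). Pank1 and Ppcs, enzymes of coenzyme A synthesis, rose by 0.74 ± 0.10 and 0.85 ± 0.16, and Slc25a42, the mitochondrial coenzyme A carrier, by 0.82 ± 0.13. The test was no longer passed by Pank1, Ppcs and Slc25a42 without normalization.

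Fatty acid uptake and binding changed in both directions, with 13 higher and 3 lower of 32 tested genes of the list that also holds thioesterases (11 and 2 without the dim arrays). Cd36, a fatty acid translocase of the cell surface, measured 159, 146, 178, 197 and 110 in the lignan-free rats and 738, 621, 630, 242 and 851 in the episesamin rats. Episesamin array 4 was far below the other 4 but above every lignan-free array (log2 difference 1.84 ± 0.39, 3.57-fold higher, limma adjusted p = 0.0093). Fabp5, a fatty acid binding protein first described in skin, measured 3920, 4196, 2937, 5509 and 4446 in the lignan-free rats and 1321, 1972, 1880, 1871 and 2576 in the episesamin rats. It was lower in every episesamin rat than in any lignan-free rat (log2 difference -1.13 ± 0.22, 2.18-fold lower, limma adjusted p = 0.0054). Fabp1, the main binding protein of hepatocytes, was not called, with 14620 to 15770 in mean intensity and a log2 difference of 0.11 ± 0.07 (adjusted p = 0.36) that shrank to 0.01 without normalization. Acsm5, a medium-chain acyl-CoA synthetase, rose by 1.9 ± 0.37, and Slc27a2, which activates very long chains, by 0.61 ± 0.08. Aig1, a membrane hydrolase of fatty acid esters of hydroxy fatty acids, measured 103, 71.8, 164, 106 and 83.7 in the lignan-free rats and 1407, 1335, 1242, 1099 and 1285 in the episesamin rats, with no overlap (log2 difference 3.57 ± 0.19, 11.9-fold higher, limma adjusted p = 4.4e-10). The call ended for Cd36 and Slc27a2 without normalization, and Cd36 without the arrays numbered 1.

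Microsomal omega-oxidation, in which P450 enzymes hydroxylate the far end of a fatty acid, gave 6 higher and 1 lower of 21 tested genes (4 and 0 without the dim arrays). Their median was -0.11, with 9 members above 0 and 12 below. Without the dim arrays the median was 0.08. Cyp4a1, the classic peroxisome proliferator-responsive P450 of rat liver, measured 2451, 2432, 3165, 3274 and 2761 in the lignan-free rats and 10810, 10900, 10270, 10440 and 11240 in the episesamin rats. All episesamin values were several times the lignan-free values (log2 difference 1.94 ± 0.10, 3.83-fold higher, limma adjusted p = 3.1e-10). Cyp2j4, an epoxygenase, measured 299, 388, 610, 397 and 500 in the lignan-free rats and 1812, 1539, 1427, 1657 and 1476 in the episesamin rats, again with no overlap (log2 difference 1.87 ± 0.17, 3.66-fold higher, limma adjusted p = 6.9e-07). Cyp4a3 rose by 1.0 ± 0.12, and Aldh3a2, the aldehyde dehydrogenase that finishes fatty alcohol oxidation, by 0.53 ± 0.07. The lowered member was Cyp4b1 (log2 difference -0.60 ± 0.15, 1.52-fold lower, limma adjusted p = 0.028). Calls were lost for Aldh3a2 without normalization. The call of Cyp4b1 ended in 6 of the 33 alternatives (adjusted p up to 0.18).

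Genes of ketone body synthesis and of the fasting response gave 5 higher (38.5%, against 2.91% of all genes) and 0 lower of 13 tested, also without the dim arrays. Their median log2 difference was 0.29. Without normalization 1 was higher and the median was 0.065. Cpt1a and Pck1, also members of this list, were not called. Pdk4, the kinase that shuts off pyruvate dehydrogenase, measured 674, 590, 576, 678 and 1350 in the lignan-free rats and 2732, 2696, 1836, 1504 and 3457 in the episesamin rats. Lignan-free array 5 was far above the rest of its group yet below the lowest episesamin array (log2 difference 1.67 ± 0.29, 3.18-fold higher, limma adjusted p = 0.0018). Acat1, the mitochondrial acetoacetyl-CoA thiolase, rose from 2570 to 4939 (log2 difference 0.93 ± 0.10, 1.91-fold higher, limma adjusted p = 9.6e-06). The monocarboxylate carriers Slc16a1 and Slc16a6, the second a ketone body exporter of liver, rose by 0.73 ± 0.13 and 0.73 ± 0.15. Angptl4, a secreted inhibitor of lipoprotein lipase, measured 676, 1290, 2862, 1150 and 2341 in the lignan-free rats and 2890, 3011, 3554, 3509 and 3281 in the episesamin rats. The 5 lignan-free rats spread widely and the highest nearly reached the episesamin range (log2 difference 1.14 ± 0.27, 2.21-fold higher, limma adjusted p = 0.019). No longer past the threshold were Acat1, Slc16a1, Slc16a6 and Angptl4 without normalization, Angptl4 with only these 2 groups fitted and with brightness as a covariate, and Slc16a6 and Angptl4 without the arrays numbered 1. The call of Angptl4 ended without lignan-free array 4 (adjusted p = 0.054).

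The hexamer AGGTCA is the half-site bound by PPARα and many other nuclear receptors, and it was searched on both strands in the 250 bases upstream of each gene's start, with promoters of the RefSeq GRCr8 annotation. Of 9636 tested genes with a promoter entry, 11.1% held it. It was present in 48 of 290 raised genes (16.6%), in 22 of 212 lowered genes (10.4%), and in 16 of the 81 with an entry that rose at least 2-fold (19.8%), counts that are given as a description without a test. The windows below are those of the 6 stable raised genes with a match and the largest log2 differences, 5′ to 3′ on the gene's strand, with the hexamer or its complement TGACCT in capitals.
Nim1k (chr2:53451319-53451378, minus strand): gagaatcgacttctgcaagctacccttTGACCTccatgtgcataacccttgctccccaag
Acot4 (chr6:109399794-109399853, plus strand): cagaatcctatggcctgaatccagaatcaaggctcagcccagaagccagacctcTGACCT
Eci1 (chr10:13961129-13961188, plus strand): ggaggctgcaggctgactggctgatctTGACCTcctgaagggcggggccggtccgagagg
Dact2 (chr1:63863166-63863225, minus strand): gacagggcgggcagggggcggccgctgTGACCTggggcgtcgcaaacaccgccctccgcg
Acsm5 (chr1:183302347-183302439, plus strand): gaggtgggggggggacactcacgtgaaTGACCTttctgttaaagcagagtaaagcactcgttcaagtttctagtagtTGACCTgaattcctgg
Gde1 (chr1:182466716-182466775, minus strand): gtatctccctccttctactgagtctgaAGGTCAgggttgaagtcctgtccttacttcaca
These are Nim1k (a protein kinase, 3.83 ± 0.46 on the log2 scale), Acot4 (2.82 ± 0.20), Eci1 (2.77 ± 0.12), Dact2 (a regulator of Wnt and TGF-beta signalling, named after its values were seen, 2.21 ± 0.34), Acsm5 (1.9 ± 0.37) and Gde1 (a glycerophosphodiesterase, 1.83 ± 0.15). Acsm5 held 2 matches in its window. Acot1, Acot2, Acot3, Crat, Crot, Ehhadh, Pex11a, Hdc and Aig1 had an entry with no match, which says only that these letters are not in that window. A match is a run of letters and not a measured site.

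**Figure D3:**
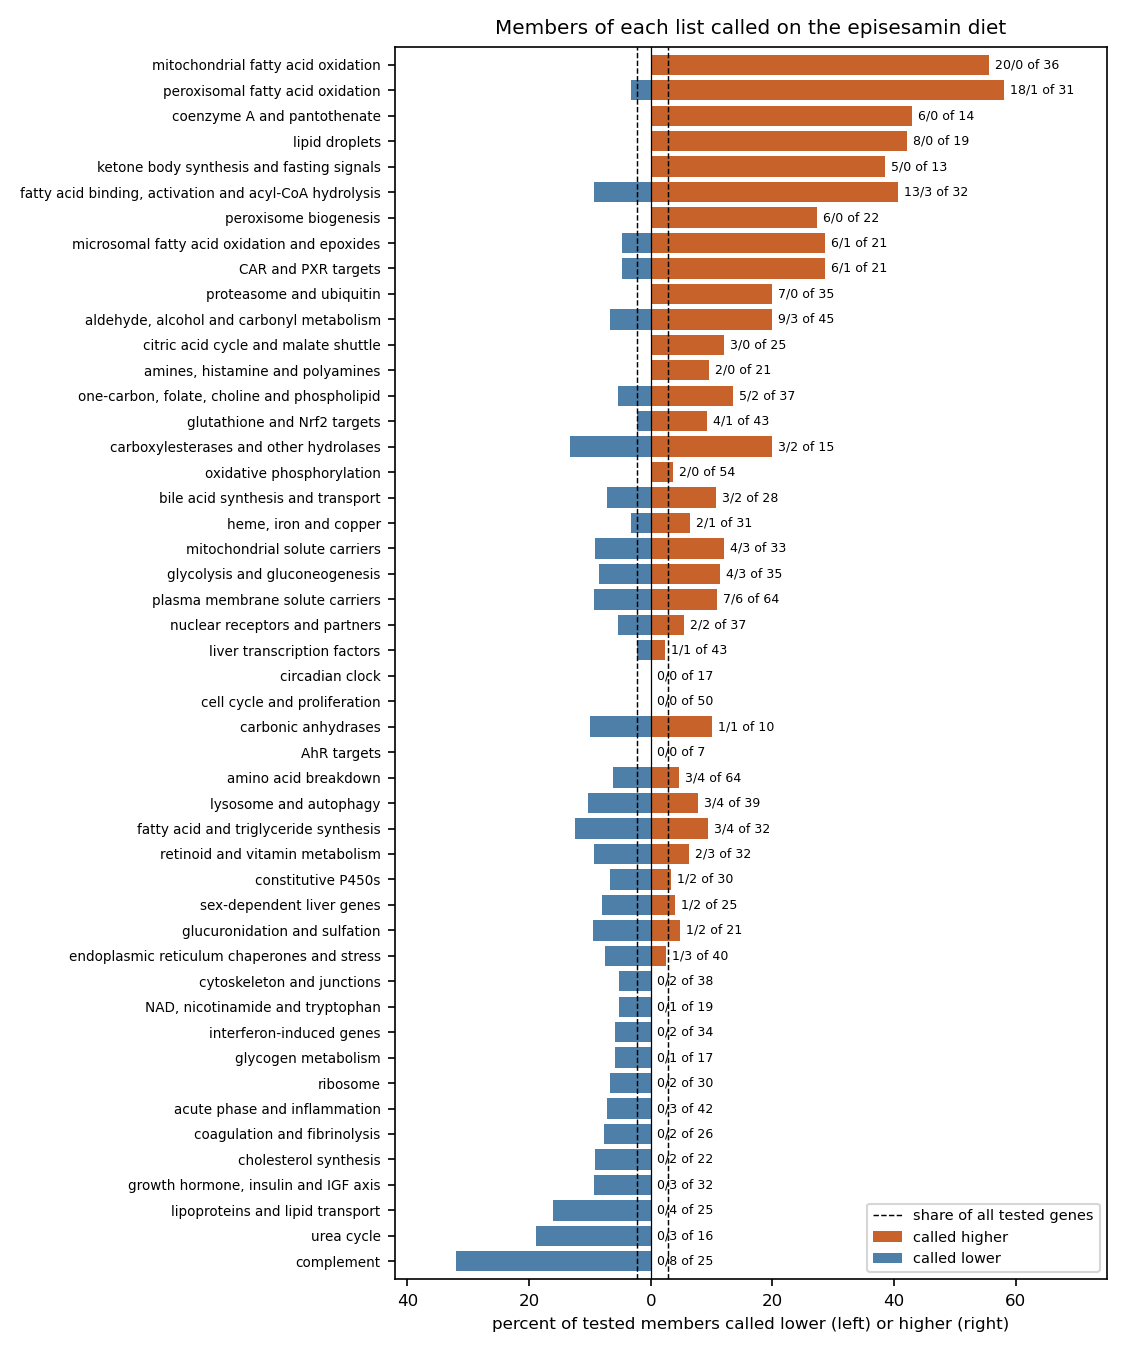
Percent of the tested members of each of 48 pathway lists called lower (left, blue) or higher (right, orange) on episesamin, with the numbers higher/lower of tested beside each bar. Dashed lines mark the shares over all tested genes, 2.91% higher and 2.21% lower. Peroxisomal oxidation has 58.1% of its members higher, and complement has the longest bar to the left.

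Coats and enzymes of lipid droplets, the cell's stores of triglyceride, gave 8 higher and 0 lower of 19 tested genes with a median of 0.38 (0.32 with median scaling, 0.23 without normalization), and 7 higher without the dim arrays. Cidea, which promotes droplet fusion, measured 46.1, 51, 56.2, 42.4 and 43.7 in the lignan-free rats and 198, 167, 225, 203 and 258 in the episesamin rats. The groups were well separated (log2 difference 2.0 ± 0.19, 4-fold higher, limma adjusted p = 1.2e-06). Plin5, a droplet coat protein that tethers droplets to mitochondria, measured 25.8, 30.9, 29.1, 23.1 and 23.2 in the lignan-free rats and 80.2, 94.9, 88.7, 82.4 and 110 in the episesamin rats, also without overlap (log2 difference 1.59 ± 0.12, 3.01-fold higher, limma adjusted p = 6.5e-08). Mgll, which splits the last fatty acid from glycerol, measured 403, 365, 350, 535 and 589 in the lignan-free rats and 1323, 1012, 1208, 1364 and 1005 in the episesamin rats. Lignan-free arrays 4 and 5 were the highest of their group and stayed below all episesamin arrays (log2 difference 1.41 ± 0.18, 2.65-fold higher, limma adjusted p = 6.6e-05). Plin2, the main droplet coat of hepatocytes, rose from 4454 to 7252 (0.71 ± 0.12), but with the mean of its probe sets the difference was 0.02 (adjusted p = 0.97). Fitm2, needed for droplet budding, and Hilpda, an inhibitor of the triglyceride lipase Pnpla2, rose by 0.81 ± 0.18 and 0.64 ± 0.13. Water and glycerol channels moved in opposite directions, Aqp7 with 29.5, 27.1, 40, 26.7 and 33 in the lignan-free rats and 128, 103, 148, 85.2 and 81.8 in the episesamin rats (log2 difference 1.61 ± 0.32, 3.06-fold higher, limma adjusted p = 0.0051) and Aqp9 with 2564, 2335, 2149, 2564 and 2486 in the lignan-free rats and 1580, 1569, 1517, 1396 and 1548 in the episesamin rats. Each of the lignan-free rats was above each of the episesamin rats for Aqp9 (log2 difference -0.67 ± 0.10, 1.59-fold lower, limma adjusted p = 0.00056). The test was no longer passed by Hilpda with median scaling, Plin2, Fitm2 and Hilpda without normalization, Plin2 and Fitm2 with the mean of all probe sets, and by Fitm2 without the dim arrays.

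Fatty acid and triglyceride synthesis gave 3 higher (9.38%) and 4 lower (12.5%) of 32 tested genes, against 2.91% and 2.21% of all genes. Without the dim arrays 0 were higher and 2 lower. Acaca, the acetyl-CoA carboxylase of fatty acid synthesis, measured 2033, 1994, 1917, 2906 and 2075 in the lignan-free rats and 1049, 1360, 1416, 1271 and 1627 in the episesamin rats. Lignan-free array 4 stood far above the rest of its group, and the groups did not overlap (log2 difference -0.69 ± 0.16, 1.62-fold lower, limma adjusted p = 0.019). The other lowered members were Acss2, which makes cytosolic acetyl-CoA from acetate (-0.86 ± 0.19), Dgat2, the last enzyme of triglyceride synthesis (-0.43 ± 0.11), and Tkfc, which phosphorylates glyceraldehyde (-0.71 ± 0.18). Hsd17b12, of fatty acid elongation, was higher (0.36 ± 0.07), as were Fads2, a desaturase (0.44 ± 0.13), and Agpat3, an acyltransferase (0.50 ± 0.12). Scd, the delta-9 desaturase, was not called (-0.08 ± 0.07, adjusted p = 0.54). Of these only Hsd17b12 was among the 265. The call ended for Hsd17b12 with median scaling and without normalization, Acss2 with only these 2 groups fitted, Acaca and Hsd17b12 without the dim arrays, and Acaca and Acss2 without the arrays numbered 1. The call of Acaca ended without lignan-free array 4 (adjusted p = 0.056), that of Dgat2 in 9 of the 33 alternatives (adjusted p up to 0.18), that of Tkfc in 8 (adjusted p up to 0.31), that of Fads2 in 25 (adjusted p up to 0.41), and that of Agpat3 in 7 (adjusted p up to 0.66).

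Apolipoproteins and lipases of the plasma gave 0 higher and 4 lower of 25 tested genes, with a median of -0.25 (-0.31 with median scaling, -0.44 without normalization), and 3 lower without the dim arrays. Apoa4, a component of triglyceride-rich lipoproteins and HDL, measured 7029, 7597, 7369, 7292 and 7627 in the lignan-free rats and 3290, 2092, 3957, 3102 and 2350 in the episesamin rats. The lignan-free rats were within a narrow range and every episesamin rat was well under it (log2 difference -1.35 ± 0.19, 2.56-fold lower, limma adjusted p = 0.00018). Apoa2, of HDL, measured 10590, 10490, 9048, 12070 and 11340 in the lignan-free rats and 5783, 6161, 7445, 6825 and 7658 in the episesamin rats, a fall without overlap (log2 difference -0.66 ± 0.10, 1.58-fold lower, limma adjusted p = 0.00061). Apom, which carries sphingosine phosphate on HDL, measured 4845, 4854, 4433, 4720 and 5021 in the lignan-free rats and 2696, 3042, 3658, 3386 and 2947 in the episesamin rats (log2 difference -0.61 ± 0.11, 1.52-fold lower, limma adjusted p = 0.0031). Lipc, hepatic lipase, measured 5934, 6402, 5679, 6337 and 6465 in the lignan-free rats and 4270, 5062, 3766, 4115 and 5080 in the episesamin rats. Episesamin arrays 2 and 5 were the closest to the lignan-free group (log2 difference -0.47 ± 0.11, 1.39-fold lower, limma adjusted p = 0.013). Apoa1 and Apoc3 were not called, with log2 differences of -0.14 ± 0.07 and -0.02 ± 0.06 (adjusted p = 0.29 and 0.86). Of 22 tested genes of cholesterol synthesis 20 had a value below 0 (median -0.31), while 47.3% of all tested genes were above 0. The summed level of this list overlapped between the diets, 23020 to 36900 on the lignan-free arrays and 22980 to 30900 on the episesamin arrays. Only Cyp51, a sterol demethylase, and Scap, the escort of SREBP proteins, were called, at -0.72 ± 0.20 and -0.66 ± 0.18. Calls were lost for Lipc without normalization and without the dim arrays. The call of Cyp51 ended in 23 of the 33 alternatives (adjusted p up to 0.15), and that of Scap in 18 (adjusted p up to 0.48).

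Bile acid synthesis and transport gave 3 higher (10.7%) and 2 lower (7.14%) of 28 tested genes, against 2.91% and 2.21% of all genes. Of the 28, 19 were below 0, and the median was -0.09. Slco1a4, an uptake carrier of the sinusoidal membrane, measured 1138, 858, 865, 586 and 1031 in the lignan-free rats and 3301, 2463, 3342, 2420 and 2136 in the episesamin rats. Lignan-free array 4 was the lowest value, and the groups did not overlap (log2 difference 1.61 ± 0.24, 3.06-fold higher, limma adjusted p = 0.00026). Abcg5, a subunit of the pump that returns sterols to bile, rose at least 2.94-fold from a lignan-free level that was under the 17.8 limit on 3 of 5 arrays (1.7 ± 0.31). Abcb4, the phospholipid pump of the canalicular membrane, was higher (0.84 ± 0.21), and Abcb1a, a drug efflux pump, and Akr1c14, a hydroxysteroid dehydrogenase, were lower (-1.24 ± 0.35 and -0.33 ± 0.09). The call of Abcb4 ended in 11 of the 33 alternatives (adjusted p up to 0.21), that of Abcb1a in 23 (adjusted p up to 0.25), and that of Akr1c14 in 14 (adjusted p up to 0.49).

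Of 34 listed targets of CAR and PXR 21 were tested, and 6 were higher and 1 lower (5 and 0 without the dim arrays). Their median was 0.23 (0.19 with median scaling and 0.06 without normalization). The lowered member was Abcb1a, given above with bile acid transport. The P450 genes Cyp2c7 and Cyp2b3, the brightest of the uncalled members, did not pass. Aldh1a1, retinaldehyde dehydrogenase, measured 328, 544, 1415, 691 and 542 in the lignan-free rats and 4157, 3774, 3542, 3069 and 3464 in the episesamin rats. Lignan-free array 3 was far above the rest of its group, and no episesamin rat was below it (log2 difference 2.51 ± 0.34, 5.69-fold higher, limma adjusted p = 0.00013). Ces2c, a carboxylesterase, measured 99.8, 114, 198, 120 and 93.2 in the lignan-free rats and 348, 425, 415, 284 and 339 in the episesamin rats. Its lowest episesamin value exceeded the highest lignan-free value, that of array 3 (log2 difference 1.53 ± 0.24, 2.88-fold higher, limma adjusted p = 0.00056). Por, the reductase that feeds electrons to P450 enzymes, measured 467, 490, 823, 505 and 422 in the lignan-free rats and 972, 923, 1071, 759 and 930 in the episesamin rats. The value of lignan-free array 3 lay within the episesamin range, while the other 4 lignan-free rats were below it (log2 difference 0.81 ± 0.16, 1.75-fold higher, limma adjusted p = 0.0052). Ugt2b1, a glucuronosyltransferase, measured 694, 1152, 779, 804 and 199 in the lignan-free rats and 1336, 1770, 1699, 1726 and 3332 in the episesamin rats, with array 5 the lowest in one group and the highest in the other (log2 difference 1.56 ± 0.39, 2.95-fold higher, limma adjusted p = 0.025). Nr1i3, the gene of CAR itself, measured 50.8, 45.4, 179, 89.2 and 68.5 in the lignan-free rats and 157, 154, 209, 230 and 169 in the episesamin rats. Again lignan-free array 3 overlapped the episesamin group (log2 difference 1.19 ± 0.31, 2.28-fold higher, limma adjusted p = 0.032). Of 7 tested AhR targets 0 were called. The test was no longer passed by Por and Ugt2b1 without normalization and without the arrays numbered 1, and by Ugt2b1 with only these 2 groups fitted, with brightness as a covariate and without the dim arrays. The call of Ugt2b1 ended without episesamin array 5 (adjusted p = 0.063), and that of Nr1i3 in 11 of the 33 alternatives (adjusted p up to 0.11).

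Enzymes of aldehydes, alcohols and ketones gave 9 higher (20%) and 3 lower (6.67%) of 45 tested genes, against 2.91% and 2.21% of all genes. Without the dim arrays 4 were higher and 2 lower. Cbr1, a carbonyl reductase, measured 107, 138, 140, 102 and 118 in the lignan-free rats and 326, 320, 466, 239 and 238 in the episesamin rats. Episesamin array 3 was the highest and arrays 4 and 5 the lowest, all above the lignan-free rats (log2 difference 1.32 ± 0.17, 2.5-fold higher, limma adjusted p = 7.5e-05). The dehydrogenases Dhrs4 (peroxisomal, 0.88 ± 0.09), Dhrs1 (0.99 ± 0.22) and Hsd17b2, which inactivates oestradiol and testosterone (0.95 ± 0.21), rose as well. The lowered members were Aldh1b1 (-1.5 ± 0.40), Hsd11b1, which regenerates active glucocorticoid (-0.60 ± 0.15), and Akr1c14 (-0.33 ± 0.09). Glutathione and Nrf2 genes gave 4 higher (9.3%) and 1 lower (2.33%) of 43, against 2.91% and 2.21% of all genes. Among the higher were the glutathione transferases Gstm7 (0.86 ± 0.16) and Mgst3 (0.50 ± 0.09) and the lipid peroxidase Gpx4 (0.31 ± 0.07). The lower one was Mgst2 (-0.47 ± 0.12). Nceh1, a neutral cholesterol ester hydrolase, rose from 61.7 to 197 (1.54 ± 0.26). The call ended for Gpx4 with median scaling, with the mean of all probe sets and with only these 2 groups fitted, Dhrs4, Dhrs1, Hsd17b2, Gstm7, Mgst3 and Gpx4 without normalization, Dhrs1, Hsd17b2 and Gpx4 without the dim arrays, and Hsd17b2 and Gpx4 without the arrays numbered 1. The call of Aldh1b1 ended in 10 of the 33 alternatives (adjusted p up to 0.21), that of Hsd11b1 in 4 (adjusted p up to 0.070), that of Akr1c14 in 14 (adjusted p up to 0.49), and that of Mgst2 in 10 (adjusted p up to 0.089).

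Glycolysis and gluconeogenesis gave 4 higher (11.4%) and 3 lower (8.57%) of 35 tested genes, against 2.91% and 2.21% of all genes. The median was 0.01, and the other 28 were not called. Pklr, the pyruvate kinase of liver that ends glycolysis, measured 4150, 4433, 4041, 4975 and 4096 in the lignan-free rats and 1638, 1951, 2413, 2311 and 2245 in the episesamin rats. Each episesamin value was well under the lignan-free range, and the groups did not overlap (log2 difference -1.05 ± 0.13, 2.07-fold lower, limma adjusted p = 5.8e-05). Slc2a2, the glucose transporter GLUT2, measured 4000, 4049, 4018, 4617 and 4420 in the lignan-free rats and 2432, 2560, 3055, 2513 and 3251 in the episesamin rats (log2 difference -0.62 ± 0.09, 1.53-fold lower, limma adjusted p = 0.00019). Mpc1, a subunit of the carrier that brings pyruvate into mitochondria, measured 3554, 4041, 4359, 4298 and 4143 in the lignan-free rats and 2304, 2004, 2236, 2432 and 1994 in the episesamin rats. The fall was of similar size in all 5 rats (log2 difference -0.89 ± 0.10, 1.86-fold lower, limma adjusted p = 7.8e-06). Both glycerol 3-phosphate dehydrogenases rose, the mitochondrial Gpd2 with 61.8, 39.9, 48.1, 81 and 83.3 in the lignan-free rats and 235, 147, 156, 158 and 200 in the episesamin rats (log2 difference 1.45 ± 0.20, 2.74-fold higher, limma adjusted p = 0.00013) and the cytosolic Gpd1 with 4512, 4252, 3190, 3794 and 3569 in the lignan-free rats and 5693, 6259, 5004, 5732 and 6854 in the episesamin rats (log2 difference 0.61 ± 0.13, 1.53-fold higher, limma adjusted p = 0.0075). Pck1, the enzyme that commits to gluconeogenesis, was not called (-0.26 ± 0.21, adjusted p = 0.53). In the citric acid cycle list 3 of 25 genes (12%, against 2.91% of all genes) were higher and 0 lower: Suclg1, of succinyl-CoA ligase, with 1936, 1723, 1934, 1903 and 1810 in the lignan-free rats and 3184, 2962, 2699, 2714 and 3080 in the episesamin rats (log2 difference 0.65 ± 0.07, 1.57-fold higher, limma adjusted p = 6.2e-06), its partner Sucla2 (0.38 ± 0.10) and Idh1, the cytosolic isocitrate dehydrogenase (0.28 ± 0.08). Aco1, cytosolic aconitase and iron regulatory protein, rose in all 5 rats from a mean of 785 to 1668 (log2 difference 1.09 ± 0.10, 2.12-fold higher, limma adjusted p = 7.9e-07). Calls were lost for Gpd1 with median scaling, and Gpd1, Suclg1 and Aco1 without normalization. The call of Sucla2 ended in 11 of the 33 alternatives (adjusted p up to 0.64), and that of Idh1 in 26 (adjusted p up to 0.74).

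The urea cycle list gave 0 higher and 3 lower of 16 tested genes (2 lower without the dim arrays) and a median of -0.30 (-0.39 with median scaling, -0.52 without normalization). Ass1, argininosuccinate synthase, measured 10010, 11050, 10130, 11790 and 10440 in the lignan-free rats and 5747, 7242, 7529, 7908 and 6964 in the episesamin rats. All lignan-free arrays were above all episesamin arrays (log2 difference -0.60 ± 0.12, 1.51-fold lower, limma adjusted p = 0.0056). Slc25a15, the mitochondrial ornithine carrier, measured 1600, 1696, 2285, 2026 and 1721 in the lignan-free rats and 1135, 1291, 1420, 1233 and 1386 in the episesamin rats (log2 difference -0.52 ± 0.12, 1.43-fold lower, limma adjusted p = 0.016). Car5a, the mitochondrial carbonic anhydrase that supplies bicarbonate to the cycle, measured 271, 206, 138, 187 and 171 in the lignan-free rats and 58, 64.2, 82.6, 67.2 and 63.5 in the episesamin rats. Lignan-free array 1 was the highest and the episesamin values were close together (log2 difference -1.43 ± 0.22, 2.7-fold lower, limma adjusted p = 0.00040). Cps1 and Arg1, the first and the last enzyme of the cycle, were not called (-0.14 ± 0.07 and -0.11 ± 0.09, adjusted p = 0.29 and 0.54). No longer past the threshold was Slc25a15 with the mean of all probe sets and without the dim arrays.

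Amino acid breakdown gave 3 higher (4.69%) and 4 lower (6.25%) of 64 tested genes, against 2.91% and 2.21% of all genes. The median was -0.06, and the summed levels of the list overlapped between the diets. Hibch, of valine breakdown, Gcdh, of lysine and tryptophan breakdown, and Agxt, which transaminates glyoxylate, were higher by 0.71 ± 0.14, 0.67 ± 0.13 and 0.52 ± 0.11. Aass, of lysine breakdown, Dmgdh and Bhmt, of choline breakdown, and Acmsd, of tryptophan breakdown, were lower by -0.58 ± 0.12, -0.84 ± 0.14, -0.65 ± 0.16 and -0.95 ± 0.26. Outside the list, Gcat, which splits a product of threonine into glycine and acetyl-CoA, measured 479, 490, 539, 682 and 464 in the lignan-free rats and 199, 253, 290, 308 and 309 in the episesamin rats. Episesamin array 1 was the lowest and lignan-free array 4 the highest (log2 difference -0.95 ± 0.18, 1.94-fold lower, limma adjusted p = 0.0046). Xpnpep2, a membrane aminopeptidase, fell from 271 to 118 (-1.15 ± 0.18). The test was no longer passed by Hibch and Agxt with median scaling, Hibch, Gcdh, Agxt and Aass without normalization, and by Aass without the dim arrays. The call of Bhmt ended in 7 of the 33 alternatives (adjusted p up to 0.12), and that of Acmsd in 12 (adjusted p up to 0.11).

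Inositol and phospholipid genes moved in both directions. Isyna1, which makes inositol phosphate from glucose phosphate, fell from 158 to 57.9 (log2 difference -1.35 ± 0.21, 2.56-fold lower, limma adjusted p = 0.00039). Impa2, an inositol monophosphatase, measured 86.6, 171, 71.3, 125 and 127 in the lignan-free rats and 433, 218, 441, 481 and 379 in the episesamin rats. Episesamin array 2 was well below its group and above every lignan-free array (log2 difference 1.71 ± 0.25, 3.27-fold higher, limma adjusted p = 0.00026). Miox, which breaks down inositol to glucuronate, measured 310, 201, 210, 283 and 291 in the lignan-free rats and 771, 1015, 589, 752 and 655 in the episesamin rats (log2 difference 1.52 ± 0.18, 2.87-fold higher, limma adjusted p = 1.8e-05). Gde1, which splits glycerophosphodiesters, measured 487, 439, 398, 491 and 656 in the lignan-free rats and 1627, 1580, 1849, 2143 and 1624 in the episesamin rats. The rise was present in each rat (log2 difference 1.83 ± 0.15, 3.57-fold higher, limma adjusted p = 8.4e-08). Lpcat3, which places polyunsaturated chains into phospholipids, rose by 0.65 ± 0.10, and Etnk1, ethanolamine kinase, fell by 0.50 on the log2 scale. In vitamin C synthesis Rgn, gluconolactonase, measured 5533, 5451, 5650, 5301 and 6290 in the lignan-free rats and 3457, 2873, 2841, 3617 and 3597 in the episesamin rats, with no overlap (log2 difference -0.79 ± 0.11, 1.73-fold lower, limma adjusted p = 0.00010), and Gulo, the last enzyme of that path, was lower by -0.43 ± 0.08. Vkorc1, the reductase of vitamin K, was lower by -0.38 ± 0.09. The call ended for Lpcat3, Gulo and Vkorc1 without normalization, Etnk1 with the mean of all probe sets, Etnk1 and Vkorc1 without the dim arrays, and Vkorc1 without the arrays numbered 1.

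The complement, acute phase and coagulation lists held lowered genes and no raised ones. Complement genes gave 0 higher and 8 lower of 25 tested, a share of 32% against 2.21% of all genes, with a median of -0.24 (-0.32 with median scaling, -0.45 without normalization), but 1 lower without the dim arrays. C1s, a serine protease of the first complement component, measured 4408, 4128, 3542, 4308 and 3981 in the lignan-free rats and 1721, 2018, 1818, 1996 and 2066 in the episesamin rats. The values on episesamin were close together and far under the lignan-free range (log2 difference -1.08 ± 0.15, 2.11-fold lower, limma adjusted p = 0.00018). C1r, its partner protease, measured 3721, 3332, 2507, 4103 and 2886 in the lignan-free rats and 1165, 1630, 1785, 1859 and 2354 in the episesamin rats. Lignan-free array 3 was the lowest of its group and episesamin array 5 the highest, and they did not cross (log2 difference -0.92 ± 0.21, 1.9-fold lower, limma adjusted p = 0.014). C1qa, the recognition subunit made by macrophages, measured 1366, 1676, 1344, 1436 and 1305 in the lignan-free rats and 914, 887, 849, 1057 and 988 in the episesamin rats (log2 difference -0.60 ± 0.13, 1.51-fold lower, limma adjusted p = 0.012). C3, the central component, was not called (-0.05 ± 0.07, adjusted p = 0.73). The acute phase list gave 0 higher and 3 lower of 42 (7.14%, against 2.21% of all genes): Cp, the copper carrier ceruloplasmin (-0.40 ± 0.08), Apcs (-0.41 ± 0.10) and Mbl2 (-0.36 ± 0.09), which is also a complement gene. Relative to the median of all genes, the median of this list was -0.11, and -0.05 with median scaling. In coagulation, F5 and Serpina10 were the 2 lowered genes of 26 (7.69%), at -0.68 ± 0.16 and -0.39 ± 0.09. Without the dim arrays 1 acute phase gene and 0 coagulation genes were lower. Calls were lost for C1qa and Cp without normalization, Cp with the mean of all probe sets, and C1r, C1qa, Cp and F5 without the dim arrays. The call of F5 ended without lignan-free array 4 (adjusted p = 0.056), that of Apcs in 7 of the 33 alternatives (adjusted p up to 0.20), that of Mbl2 in 9 (adjusted p up to 0.18), and that of Serpina10 in 7 (adjusted p up to 0.13).

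**Figure D4:**
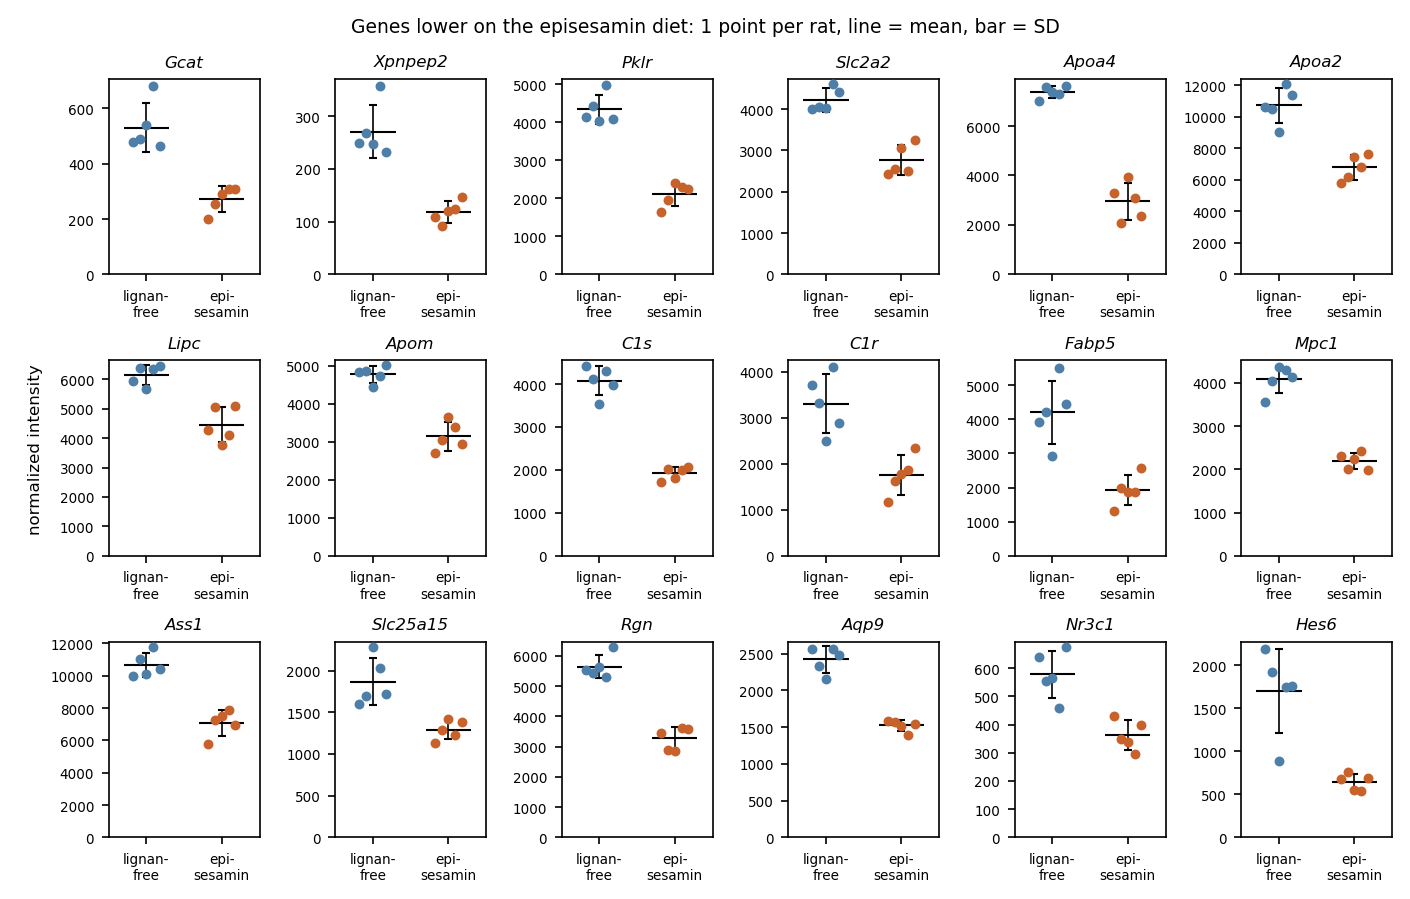
Normalized intensity of 18 genes that were lower on episesamin, in each rat. Points are rats, lines are group means and bars are SD (n = 5 per diet), and each panel has its own axis from 0. In all 18 panels the groups do not overlap. Hes6 shows lignan-free array 3 at 885, apart from the other 4.

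Markers of Kupffer cells and macrophages were lower on episesamin: all 12 tested markers had a value below 0, and 5 of them (41.7%) passed the test. Of all tested genes 2.21% were called lower and 47.3% were above 0. The median of the markers was -0.44 (-0.56 with median scaling, -0.69 without normalization). Relative to the median of all genes under the same scaling, these medians were -0.421, -0.435 and -0.442. The summed level of the list ran from 8328 to 9519 on the lignan-free arrays and from 6003 to 7094 on the episesamin arrays, with no overlap. The list shares C1qa and C1qc with the complement genes. Mrc1, the mannose receptor, measured 721, 600, 695, 642 and 673 in the lignan-free rats and 469, 503, 473, 477 and 504 in the episesamin rats. The groups did not overlap and the episesamin values were within a narrow band (log2 difference -0.45 ± 0.08, 1.37-fold lower, limma adjusted p = 0.0030). Aif1, Cd5l and C1qc, the others that passed beside C1qa, were lower by -0.72 ± 0.18, -0.64 ± 0.17 and -0.49 ± 0.14, and the call of C1qc (adjusted p = 0.042) held in 8 of the 20 fits that left out 1 array. Clec4f, the receptor particular to Kupffer cells, was not called (-0.36 ± 0.16, adjusted p = 0.23), and without the dim arrays 1 of the 12 passed. Also not called were Cd68, Cd163, Adgre1, Csf1r, C1qb and Lyz2, with limma adjusted p from 0.20 to 0.37. In RNA of whole tissue, fewer cells of a type and less RNA per cell cannot be told apart. Mrc1, Aif1 and Cd5l were named after their values were seen. No longer past the threshold was Mrc1 without normalization and without the dim arrays. The call of Aif1 ended in 8 of the 33 alternatives (adjusted p up to 0.18), and that of Cd5l in 13 (adjusted p up to 0.11).

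Of the other marker lists, 0 of 15 hepatocyte, 0 of 11 lymphocyte and neutrophil, 0 of 17 stellate cell and fibroblast, 0 of 6 bile duct and 0 of 4 red blood cell markers passed. Of 5 tested adipocyte and exocrine pancreas markers, 1 was higher (20%, against 2.91% of all genes), and their summed levels overlapped between the diets. The 15 hepatocyte markers had a summed level of 122000 to 128100 on the lignan-free arrays and 115700 to 122600 on episesamin, with a median difference of -0.14, so the labelled tissue was borne out by its markers on all 10 arrays. The summed level of the 11 lymphocyte and neutrophil markers was also lower without overlap, 375.5 to 511.7 against 305.8 to 364.6. In the endothelial list, 2 of 13 were lower, among them Lyve1, a hyaluronan receptor of sinusoidal endothelium named after its values were seen (log2 difference -0.60 ± 0.11, 1.51-fold lower, limma adjusted p = 0.0041), with summed levels of 4423 to 5259 and 4001 to 4417. The part of these cell types in the results for liver genes was not tested. The test was no longer passed by Lyve1 without normalization.

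**Figure D5:**
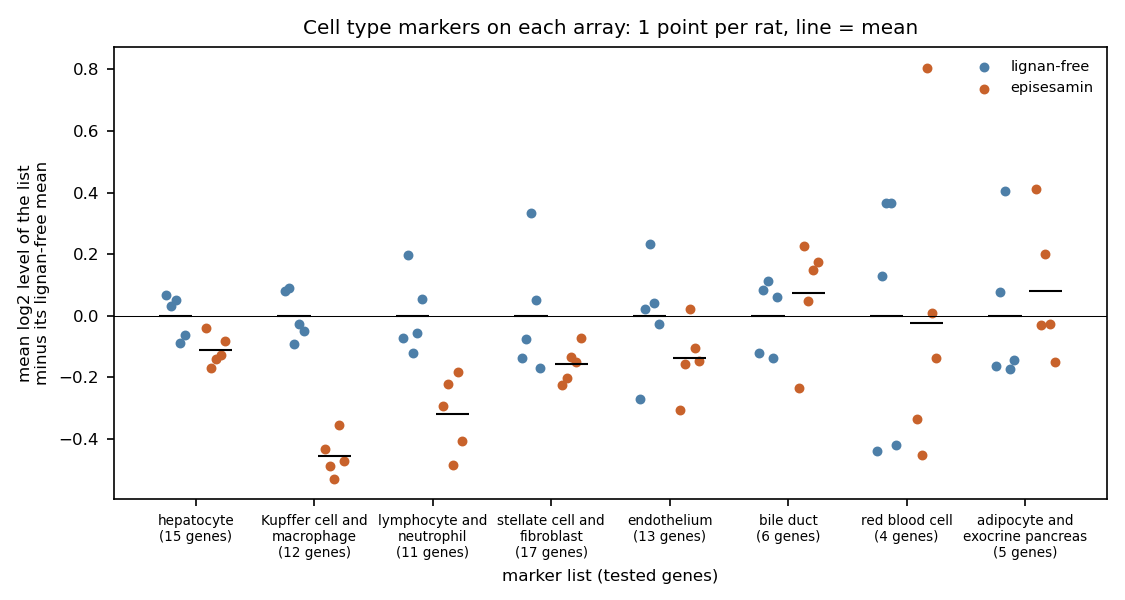
Mean log2 level of each marker list on each array, minus its mean over the 5 lignan-free arrays. Points are rats and short lines are group means. The Kupffer cell and macrophage list is the one whose groups lie furthest apart, -0.53 to -0.35 on episesamin against -0.09 to 0.09.

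Nuclear receptors and their partners gave 2 higher (5.41%) and 2 lower (5.41%) of 37 tested genes, against 2.91% and 2.21% of all genes. Other regulators are given singly. Creb3l3, a liver transcription factor bound to the endoplasmic reticulum, measured 2724, 3815, 3410, 2553 and 3440 in the lignan-free rats and 4150, 4656, 4888, 4401 and 5494 in the episesamin rats. Lignan-free array 2 was the highest of its group and below the lowest episesamin array (log2 difference 0.57 ± 0.11, 1.49-fold higher, limma adjusted p = 0.0056). Nr3c1, the glucocorticoid receptor, measured 639, 554, 565, 457 and 674 in the lignan-free rats and 432, 349, 336, 296 and 399 in the episesamin rats. Lignan-free array 4 was the closest to the episesamin rats (log2 difference -0.66 ± 0.13, 1.58-fold lower, limma adjusted p = 0.0051). Hes6, a helix-loop-helix factor, measured 2186, 1926, 885, 1747 and 1760 in the lignan-free rats and 675, 757, 545, 540 and 691 in the episesamin rats. Lignan-free array 3 was far below the other 4 and above all episesamin rats (log2 difference -1.35 ± 0.29, 2.55-fold lower, limma adjusted p = 0.0094). Rxrg, a retinoid X receptor, was the other raised nuclear receptor gene beside Nr1i3 (0.56 ± 0.14). The kinases Prkab1, a regulatory subunit of AMPK, and Map2k6, of the p38 pathway, fell from 682 to 357 and from 95.5 to 50.4 (-0.93 ± 0.21 and -0.86 ± 0.17). Of 50 cell cycle genes and 17 clock genes, 0 were called. The call ended for Creb3l3 without normalization, Creb3l3, Nr3c1 and Prkab1 without the dim arrays, and Hes6 and Prkab1 without the arrays numbered 1. The call of Rxrg ended in 12 of the 33 alternatives (adjusted p up to 0.48).

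Proteasome and ubiquitin genes gave 7 higher (20%) and 0 lower of 35, against 2.91% of all genes higher. With median scaling, without normalization and with only the 2 groups fitted, 0 of the 35 passed, and 1 without the dim arrays. Their median was 0.19, 0.07 with median scaling and -0.06 without normalization, which is 0.20 above the median of all genes in each of the 3 data sets. Psmb3, a subunit of the catalytic core, measured 1788, 1664, 2035, 1696 and 1661 in the lignan-free rats and 2122, 2228, 2481, 2186 and 2157 in the episesamin rats. The lowest episesamin value was just above the highest lignan-free one (log2 difference 0.34 ± 0.07, 1.26-fold higher, limma adjusted p = 0.012). Oxidative phosphorylation gave 2 higher (3.7%, near the share over all genes) and 0 lower of 54, Ndufa12 and Uqcrc1 at 0.30 ± 0.07 and 0.27 ± 0.07, with a median of 0.07 that turned to -0.02 with median scaling and -0.15 without normalization. Families picked out by symbol after the values were seen gave 4 higher of 73 mitochondrial ribosomal proteins (median 0.11, -0.03 and -0.16 under the 3 scalings), 2 of 23 import proteins Timm and Tomm, and 4 of 7 Chchd genes, with 0 lower in each. The family of Nduf symbols, picked in the same way and holding Ndufa12, gave 5 higher and 0 lower of 42. Its median was 0.11, 0.002 with median scaling and -0.13 without normalization. Among these and other mitochondrial genes Timm10b, a chaperone between the membranes, rose by 0.83 ± 0.11, Chchd6, of the crista junction, by 0.81 ± 0.16, Mrps18b by 0.53 ± 0.09 and Grpel1, of the matrix import motor, by 0.52 ± 0.11. Immt, which shapes cristae, and Mfn2, which fuses mitochondria, rose by 0.37 ± 0.08 and 0.42 ± 0.09. These 6 genes were named after their values were seen. Calls were lost for Psmb3, Grpel1, Immt and Mfn2 with median scaling, Psmb3, Timm10b, Chchd6, Mrps18b, Grpel1, Immt and Mfn2 without normalization, Psmb3, Grpel1 and Mfn2 with only these 2 groups fitted, and Grpel1, Immt and Mfn2 without the dim arrays. The call of Ndufa12 ended in 9 of the 33 alternatives (adjusted p up to 0.81), and that of Uqcrc1 in 15 (adjusted p up to 0.83).

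Some of the largest folds fell on genes not known for a part in liver fat metabolism. Hdc, which makes histamine from histidine, measured 30.2, 29.7, 15.4, 21.1 and 30.6 in the lignan-free rats and 1377, 1356, 364, 71.6 and 1379 in the episesamin rats. Episesamin arrays 1, 2 and 5 were nearly equal and arrays 3 and 4 far lower, so the size of the rise differed widely between rats although none overlapped the lignan-free group (log2 difference 4.28 ± 0.66, 19.5-fold higher, limma adjusted p = 0.00043). Colq, the collagen tail that anchors acetylcholinesterase, measured 15.6, 7.96, 26.5, 18 and 24.7 in the lignan-free rats and 261, 241, 316, 298 and 222 in the episesamin rats, with a rise in every rat (log2 difference 3.54 ± 0.25, 11.6-fold higher, limma adjusted p = 1.3e-08). Chrna2, a nicotinic receptor subunit, measured 1.61, 4.12, 2.89, 3.12 and 18.1 in the lignan-free rats and 187, 101, 73.4, 73.7 and 117 in the episesamin rats. Lignan-free array 5 alone reached the 17.8 limit, and the rise was at least 5.79-fold (3.36 ± 0.38, adjusted p = 1.3e-05). Nim1k, a protein kinase, measured 4.34, 34.4, 64.3, 24.6 and 71.5 in the lignan-free rats and 707, 517, 371, 662 and 409 in the episesamin rats. Its lignan-free values differed widely and lay far below the lowest episesamin rat (log2 difference 3.83 ± 0.46, 14.2-fold higher, limma adjusted p = 2.5e-05). Rhof, a small GTPase of filopodia, rose from 22.1 to 141 (2.52 ± 0.30). Myo7b, a myosin of microvilli, had the largest fall, with 162, 188, 52.1, 308 and 127 in the lignan-free rats and 24.8, 43.2, 32.3, 15.9 and 36.6 in the episesamin rats. Lignan-free array 3 was closest to the episesamin group (log2 difference -2.11 ± 0.39, 4.31-fold lower, limma adjusted p = 0.0030).

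Direct tests set the episesamin rats against the rats fed sesamin and sesamolin at the same 0.2% for the same 15 d, 2 pairs of diets in all, each with p adjusted over its 11576 genes. Against sesamin, 142 genes differed (1.23%), 95 higher and 47 lower on episesamin, with 82 to 154 when single arrays were left out. The calls fell to 65 with median scaling and to 12 without normalization. Of the 206 called genes that were singled out by rule or added after their values were seen, 77 also differed from sesamin. Acot1 averaged 1310 on sesamin and was 2.47 ± 0.36 higher on episesamin (log2, limma adjusted p = 0.0011). Crat averaged 401 (1.76 ± 0.19, adjusted p = 0.00012), and Ehhadh 3489 (1.53 ± 0.19, adjusted p = 0.00034). Some genes stood near the lignan-free level on sesamin. Cpt1b averaged 31.8 on sesamin and 30.1 on the lignan-free diet, and differed between the epimers by 1.47 ± 0.25 (adjusted p = 0.0046). C1s averaged 3809 and 4073 (-0.96 ± 0.15, adjusted p = 0.0020), Rgn 5626 and 5645 (-0.78 ± 0.11, adjusted p = 0.00073), and Car5a 198 and 195 (-1.43 ± 0.22, adjusted p = 0.0014).

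For other genes the difference between the epimers did not pass the adjusted test, which does not show that they act alike. Acaca averaged 1370 on sesamin against 1345 on episesamin, a difference of 0.00 ± 0.16, Lipc 4811 against 4459 (-0.11 ± 0.11), Fabp5 2436 against 1924 (-0.32 ± 0.22) and Aldh3a2 5747 against 6562 (0.19 ± 0.07), with adjusted p from 0.28 to 0.997. Against sesamolin, which has an ether oxygen between a furofuran carbon and 1 of its aromatic rings, 0 of the 11576 genes passed with limma, 662 had an unadjusted p below 0.05, and the smallest adjusted p was 0.368. With trended and robust eBayes the count was also 0. The median margin (from the estimate to either end) of the 95% interval of a single gene was 0.341 on the log2 scale. That margin is not adjusted over genes, and larger differences also missed the adjusted test. Sez6, named after its value was seen, differed by 1.02 ± 0.21 (limma adjusted p = 0.49). Car5a differed by -0.63 ± 0.22 (limma adjusted p = 0.83). The absence of calls therefore does not show that these diets act alike, nor that their differences are below 0.341. Acot1 averaged 5472 on sesamolin and 5883 on episesamin, a log2 difference of 0.12 ± 0.36, and Ehhadh 9481 and 10000 (0.09 ± 0.19).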

How the data were processed

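Liver RNA of 20 rats, 5 per diet, was hybridised as biotin-labelled cRNA to 1 Affymetrix array per rat, per the labels' protocols. The authors deposited a linear intensity for each of 31099 probe sets on each array, with array means from 159 to 271. The software that made them is, like its settings, not given in the sources used here. The number of arrays limits the precision.

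Intensities were quantile normalized between arrays and converted to log2 after 5.85, their 20th percentile, had been added. Of the probe sets, 20832 had 1 gene symbol, 436 several and 9831 none in the platform annotation, and 20826 remained without controls. They were kept if above 17.8, the 40th percentile, on at least 5 arrays, and each gene was read from its brightest probe set. With limma 3.58.1 (R 4.3.3), means of 4 groups were fitted on all 20 arrays, leaving 16 residual degrees of freedom besides 2.596 of the prior. Moderated tests were two-sided, and p-values were Benjamini-Hochberg adjusted over 11576 genes, with calls below 0.05. The fit was tested on simulated data.

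Where a group lay below 17.8 on most arrays, each of its arrays was set to 17.8 or its own value if higher, and the fold is given as a lower bound. Stable calls held in each of the 20 fits without 1 array, had groups that did not overlap and carried a characterised symbol. Candidates for naming were the 20 largest increases and decreases among them, and up to 6 of them and 2 bright uncalled genes per list. The 10 increases and 10 decreases of highest lignan-free level were added. Not all of these candidates are described in the text. Genes named by their values are said to be. Members, 48 pathway lists and 8 marker lists were chosen with earlier results of these data known, and lists were described by counts and medians. Promoter sequences came from RefSeq. The alternatives were median scaling, raw values, an offset of 16 or none, the filter dropped or raised to the 60th percentile, averaged probe sets, trended and robust eBayes, a fit of only the 2 diets, the replicate number as a block, brightness as a covariate, and leaving out the dim arrays, those numbered 1, or each array in turn.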

Additional observations from a re-analysis of the deposited data

Results flagged for a closer look

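Of 412 groups of 5 arrays examined, 1 per diet for each of the 206 called genes singled out, 23 held 1 array far from the other 4. By chance about 1 in 20 such groups would. Above the other 4 lignan-free arrays were Chrna2 on array 5 with 18.1 (others 1.61 to 4.13), Pdk4 on array 5 with 1350 (others 576 to 678), Acot8 on array 2 with 262 (others 226 to 233) and Acaca on array 4 with 2910 (others 1920 to 2070). The same held for Por on array 3 with 823 (others 422 to 505) and Nos2 on array 1 with 15.6 (others 5.14 to 7.18). Below the other 4 lignan-free arrays were Eci1 on array 4 with 1200 (others 1620 to 1750), Hes6 on array 3 with 885 (others 1750 to 2190), Abcb1a on array 3 with 8.87 (others 23.3 to 29.3) and Mgst2 on array 3 with 1840 (others 2420 to 2640). Below the other 4 episesamin arrays were Dmgdh on array 1 with 281 (others 366 to 400), Hao2 on array 5 with 3040 (others 3780 to 4060), Acat1 on array 5 with 3860 (others 5150 to 5290) and Cd36 on array 4 with 242 (others 621 to 851). The same held for Cyp2t1 on array 1 with 169 (others 254 to 294), Mgst2 on array 4 with 1410 (others 1740 to 1890), Hsd11b1 on array 5 with 2220 (others 3060 to 3360) and Inpp1 on array 5 with 105 (others 171 to 199). The same held for Slc25a21 on array 1 with 18.6 (others 43.3 to 53.7) and Rps24 on array 4 with 2380 (others 2840 to 2960). Above the other 4 episesamin arrays were Hilpda on array 2 with 152 (others 94.8 to 106), Gbp2 on array 5 with 92.4 (others 54.9 to 61.9) and Adam22 on array 1 with 77.8 (others 42.5 to 48.2). The groups of Hao2, Abcb1a, Por, Cyp2t1, Mgst2, Inpp1 and Gbp2 overlapped between the diets, and the calls of Hao2, Acaca, Abcb1a, Cyp2t1, Mgst2, Hsd11b1, Slc25a21, Gbp2 and Rps24 ended when certain single arrays were left out. Normalized intensities are given throughout, and the cause of these values was not tested.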

How the results depend on the processing

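The number of genes called moved with the normalization and with the arrays fitted. Against the lignan-free diet, 593 genes (337 higher, 256 lower) became 262 without normalization (73 higher), 352 (217 and 135) with only the 2 groups fitted, 290 (175 and 115) without the dim arrays, and 356 (213 and 143) without the arrays numbered 1. Median scaling gave 180 higher and 496 lower, and brightness as a covariate 162 lower. Leaving out 1 array gave 372 to 635 genes called, 231 to 350 higher and 138 to 285 lower, with 150, 145, 138, 148 and 152 lower without lignan-free arrays 2, 4 and 5 and episesamin arrays 3 and 4. Against sesamin, 142 became 65 with median scaling, 12 without normalization, 82 with only the 2 groups and 77 without the arrays numbered 1, with 82 to 154 when 1 array was left out (92 and 82 without sesamin arrays 4 and 5, 86 without episesamin array 5). Against sesamolin, 0 became 1 without the filter, 1 without the dim arrays, and 0 to 1 when 1 array was left out (1 each without lignan-free array 2 or 3 or episesamin array 4). The cause was not tested. The value of Pon1, the paraoxonase of HDL, was -0.24 ± 0.07 with the brightest probe set (a call that ended in 17 of the 33 alternatives) and 0.0475 with the mean of its probe sets, and that of Cat turned from 0.05 to -0.0759 without normalization. With the replicate number as a block 697 genes passed. Deviations from the group means of same-numbered arrays correlated by 0.011 to 0.205, above 0.1 in 2 of 5 numbers, so the numbers were not taken as pairs, although 4 of 5 episesamin arrays correlated best with their own number. Of 206 called genes followed singly, 169 kept their call with median scaling, 106 without normalization and 129 without the dim arrays, and only Pon1 changed direction in any of the 33 alternatives. Dim probe sets limit what can be seen: the median standard error was 0.30 in the dimmest class of genes and 0.11 in the brightest.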

Other observations

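Of the 593 called genes, 381 were in none of the 48 pathway lists, 202 higher and 179 lower. The first 9 genes given here, Adam22 to Paqr7, are among them and were named after their values were seen. Adam22, a surface protein of neurons without protease activity, measured 6.3, 5.21, 10.4, 0.953 and 8.01 in the lignan-free rats and 77.8, 46, 43.2, 42.5 and 48.2 in the episesamin rats, so that it was not measured above 17.8 in any lignan-free rat and rose at least 2.81-fold (log2 2.28 ± 0.23, limma adjusted p = 3.2e-06). Cacna2d3, a calcium channel subunit, and Krt23, a keratin, rose at least 2.62-fold and 2.25-fold from lignan-free levels under that limit on 5 and 4 arrays. Nos2, the inducible nitric oxide synthase, measured 15.6, 5.31, 6.32, 5.14 and 7.18 in the lignan-free rats and 56.2, 59.5, 18.5, 37.6 and 60.2 in the episesamin rats. Episesamin array 3 was the lowest of its group and 18.5 lay close to the highest lignan-free value, and no rat overlapped the lignan-free group (log2 1.88 ± 0.45, adjusted p = 0.019, at least 2.39-fold), a call that ended without the dim arrays (adjusted p = 0.051). Vwa8, a mitochondrial ATPase, rose from 251 to 650 (log2 difference 1.35 ± 0.08, 2.55-fold higher, limma adjusted p = 1.1e-09). Rab30, a GTPase of the Golgi, Bbs2, of the primary cilium, Sorl1, a sorting receptor, and Paqr7, a membrane progestin receptor, rose by 1.94 ± 0.17, 1.65 ± 0.24, 1.26 ± 0.17 and 1.42 ± 0.21.

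Among the bright probe sets, Chchd10, of the mitochondrial intermembrane space, rose from 6701 to 8639 (0.37 ± 0.07) and Tmsb4x, which binds actin monomers, fell from 8042 to 6006 (-0.42 ± 0.09). The call of Chchd10 ended with median scaling, without normalization and without the dim arrays. Plasma membrane solute carriers gave 7 higher (10.9%) and 6 lower (9.38%) of 64 tested genes, against 2.91% and 2.21% of all genes. Of the 64, 39 were below 0, and the median was -0.13. Among the raised members were Slc4a4, a bicarbonate cotransporter (1.02 ± 0.19), and Slc12a2, of sodium, potassium and chloride (0.80 ± 0.13). Without normalization the calls of Tmsb4x, Slc4a4 and Slc12a2 ended. In the lysosome and autophagy list, Atg12 was higher (0.53 ± 0.10, a call that ended with median scaling and without normalization), while the cathepsin Ctsl (-0.38 ± 0.09) and the glucuronidase Gusb (-0.40 ± 0.09) were lower. Sdf2l1, of the endoplasmic reticulum, was lower as well (-0.62 ± 0.14). The calls of Ctsl, Gusb and Sdf2l1 ended without the dim arrays and without the arrays numbered 1, that of Ctsl also without normalization and with the mean of probe sets, and that of Gusb also with only the 2 groups. Among the raised genes the SD of log2 values was smaller on episesamin than on the lignan-free diet (median 0.166 against 0.196), and larger on episesamin in 38.6% of them against 54.4% of all tested genes. For the lowered genes the medians were 0.197 and 0.176. The values are a description without a test. The median standard error of a difference fell from 0.30 in the dimmest class of genes to 0.11 in the brightest. How far the level of the raised and lowered genes bears on their spread was not tested.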
